A study of Mus musculus with 16 samples.

Results

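Interferon-stimulated genes (ISGs) are switched on by interferons and encode sensors, regulators and effectors of antiviral defence. A list of 44 such genes was examined in CD8+ T cells of mice after a guide against Tardbp. The genes were taken by symbol in GENCODE M21, and all 44 were found among 55536 annotated genes. All 44 passed the filter on low counts and were among the 16650 genes tested. Tardbp encodes TDP-43, a protein that binds RNA and takes part in splicing.

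The donor cells came from OT-I mice on the C57BL/6J background, whose CD8+ T cells carry a transgenic receptor that sees SIINFEKL, a peptide of ovalbumin. Electroporation delivered Cas9, the nuclease, with a scrambled guide (Control gRNA, 8 libraries) or with a guide to Tardbp (Tardbp gRNA, 8 libraries). By the methods the OT-I donors lacked Rag1 or Rag2. The cells of both groups were transferred into C57BL/6J hosts. All hosts received antigen with agonist anti-OX40 and anti-41BB antibodies, so both groups were costimulated. Spleen and lymph nodes were taken after 4 days by the labels, and the methods give a shorter time. Transferred cells were sorted by CD8 and congenic markers, without a step that selected edited cells, and the study's text also mentions a stimulation of the purified cells that the labels do not give. A Tardbp gRNA library can hold cells with an intact Tardbp gene. The study's text counts individual recipient mice, and the sources used here do not say whether each received separately electroporated cells, so the p-values describe the spread between recipients. The labels give no age for these mice. A letter M or F for each library, headed sex in the deposited sheet, did not say whether it belonged to donor or host. It was M for 3 Control and 5 Tardbp libraries.

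Type I interferons signal through the receptor chains Ifnar1 and Ifnar2 and the kinases Jak1 and Tyk2 to a complex that holds Stat2 and Irf9 and binds the interferon-stimulated response element (ISRE) before target genes. Interferon gamma, a product of activated CD8+ T cells, signals through Ifngr1, Ifngr2, Jak1 and Jak2, and its target genes can carry the gamma-activated site (GAS). Many ISGs respond to both, and some, such as Irf1, are also induced by T cell receptor signals.

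Promoter stretches of 4 members that rose and 4 that fell are printed here because both kinds carried the same element. Each runs 5′ to 3′ from 160 bases before to 30 after the RefSeq start in GRCm38.p6, with capitals marking each match to the ISRE letters GAAANNGAAA on either strand. Overlapping matches merge into 1 run of capitals. Members that rose are Isg15 (chr4:156200789-156200978, minus strand), Ifit1 (chr19:34640729-34640918, plus), Ifit3 (chr19:34583369-34583558, plus) and Rsad2 (chr12:26456423-26456612, minus). Members that fell are Oas3 (chr5:120777630-120777819, minus), Bst2 (chr8:71537443-71537632, minus), Ifitm3 (chr7:141010715-141010904, minus) and Eif2ak2 (chr17:78882543-78882732, minus).
Isg15: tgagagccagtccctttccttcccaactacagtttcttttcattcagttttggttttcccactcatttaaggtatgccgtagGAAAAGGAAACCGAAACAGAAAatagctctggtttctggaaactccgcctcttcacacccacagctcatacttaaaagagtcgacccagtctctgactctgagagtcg
Ifit1: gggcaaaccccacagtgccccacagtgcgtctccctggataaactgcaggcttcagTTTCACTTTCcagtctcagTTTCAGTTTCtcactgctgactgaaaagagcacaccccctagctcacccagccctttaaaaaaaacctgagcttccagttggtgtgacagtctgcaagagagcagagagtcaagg
Ifit3: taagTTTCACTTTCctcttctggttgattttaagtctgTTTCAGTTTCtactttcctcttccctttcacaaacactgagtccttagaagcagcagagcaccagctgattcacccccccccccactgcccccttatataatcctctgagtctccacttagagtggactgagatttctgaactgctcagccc
Rsad2: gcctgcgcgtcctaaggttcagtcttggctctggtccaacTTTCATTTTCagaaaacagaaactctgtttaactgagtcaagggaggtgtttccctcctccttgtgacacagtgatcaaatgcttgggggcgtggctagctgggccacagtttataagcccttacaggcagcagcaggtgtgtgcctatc
Oas3: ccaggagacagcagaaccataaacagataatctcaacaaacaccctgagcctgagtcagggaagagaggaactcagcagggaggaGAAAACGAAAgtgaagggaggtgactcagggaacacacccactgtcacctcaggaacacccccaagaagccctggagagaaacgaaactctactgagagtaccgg
Bst2: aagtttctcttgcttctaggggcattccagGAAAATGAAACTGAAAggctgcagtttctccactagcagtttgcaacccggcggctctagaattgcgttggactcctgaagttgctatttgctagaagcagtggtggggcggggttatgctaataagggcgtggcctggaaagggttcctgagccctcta
Ifitm3: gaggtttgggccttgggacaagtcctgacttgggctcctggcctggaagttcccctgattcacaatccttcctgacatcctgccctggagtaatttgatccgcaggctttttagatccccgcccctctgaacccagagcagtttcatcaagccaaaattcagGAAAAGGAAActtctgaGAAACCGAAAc
Eif2ak2: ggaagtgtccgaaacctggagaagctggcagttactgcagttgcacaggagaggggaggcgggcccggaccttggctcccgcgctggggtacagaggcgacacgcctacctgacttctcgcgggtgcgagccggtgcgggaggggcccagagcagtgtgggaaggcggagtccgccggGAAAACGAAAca

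In Isg15 the 3 matches overlapped between 78 and 57 bases before the start, and in Bst2 the 2 matches lay between 130 and 115 bases before it. The 2 matches of Ifit1 stood between 104 and 76 bases before the start, those of Ifit3 between 156 and 113, and the single match of Rsad2 between 120 and 111, all on the opposite strand. In Ifitm3 and Eif2ak2 the matches lay after the start. RefSeq promoters from 250 bases before to 50 after the start were matched for 32 of 44 members, of which 17 (53.1%) held at least 1 match to GAAANNGAAA. The same letters were found in 3.99% of 27025 genes with such a promoter. By direction, 4 of 10 members called higher, 7 of 8 called lower and 6 of 14 not called held a match. These shares rest on unlike coverage. A promoter was found for all 8 members called lower but for only 10 of the 16 called higher. Ly6e, Zbp1, Gbp4, Parp14, Ifi27l2a and Mx1 had none, so the shares by direction cannot be compared. The GAS letters TTCNNNGAA, read on both strands, were found in 11 of 32 members (34.4%) and 9.55% of all genes, and in 3 of the 10 called higher, 4 of the 8 called lower and 4 of the 14 not called. A GAS match and an ISRE match can share bases, as in Bst2 and Ifitm3. These matches describe letters in a window, were not tested, and say nothing of binding in these cells.

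The targeted gene was checked first. Tardbp had 172 to 207 CPM (median 198) in Control gRNA and 110.4 to 147 CPM (median 136) in Tardbp gRNA. All 8 Tardbp libraries lay below all 8 Control libraries, with a log2 change of -0.51 ± 0.056 (SE, adjusted p 8.07e-07 by edgeR). These are RNA levels and do not measure the protein. For the protein, the study reports by immunoblot of pooled cells that it was absent after the Tardbp guide. CPM are estimated counts per 1000000 of the TMM-scaled library total, and each log2 change is the edgeR log2 fold change of Tardbp gRNA over Control gRNA. Totals of estimated counts ranged from 73649630 to 93893357 over the Control libraries and from 56016533 to 94801105 over the Tardbp libraries. The deposited RNA concentration before dilution, given with no unit, was 34.9 to 197.1 in Control and 10.1 to 24.0 in Tardbp libraries, so concentration and group cannot be told apart. The 7 CD8 T cell markers summed to 4719 to 5720 CPM in Control and 6567 to 8262 in Tardbp libraries, and all 7 were called higher. Of all genes tested, 23.5% were called higher. Of markers of other cells, Ighm of 5 tested B cell genes, Lyz2 and S100a8 of 7 myeloid genes and both tested globin genes were called higher, while Pax5 reached at most 0.0259 CPM. Summed levels in Control and Tardbp libraries were 374 to 460.2 and 540.6 to 707 CPM for the B cell list, 24.8 to 44.6 and 31.2 to 90.2 for the myeloid list and 44.9 to 85.2 and 46.6 to 69.1 for the dendritic cell list. The red cell list summed to 0.214 to 10.8 CPM in Control and 6.16 to 111.7 in Tardbp libraries, with the highest sums in Tardbp libraries 4 (111.7) and 1 (86.9). The 3 CD4 T cell genes gave 0 calls (0 at an unadjusted p under 0.05 by edgeR). Dendritic and NK cell genes also gave 0 calls, with 1 of 4 and 1 of 2 under an unadjusted p of 0.05, and Siglech, which marks plasmacytoid dendritic cells, was at 0 in every Control library and at most 0.0815 CPM in Tardbp libraries. In such bulk libraries fewer cells of a type and less RNA per cell cannot be told apart, and the part of these markers in the results was not tested.

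To ask how the ISGs differed between the groups, each was read from an edgeR fit over all tested genes, with a gene called at an adjusted p under 0.05. Among the 44 members, 24 were called, 16 higher and 8 lower in Tardbp gRNA, and 20 did not pass. Of all genes tested, 46.7% were called, 23.5% being higher and 23.3% lower. The median log2 change was 0.24 over the members and 0.046 over all genes, and 31 of 44 members had a positive value. The groups did not overlap for 3 members, Irf1, Ly6e and Gbp4, against 16.9% of all genes. The count of lower members was the less stable. It was 5 or fewer without any one of Control libraries 2 (4), 4 (5), 5 (3), 6 (4) and 7 (4) or Tardbp libraries 1 (4), 2 (3), 3 (3) and 4 (3), and without both Tardbp libraries 1 and 4, which had the most globin RNA, the counts were 20 higher and 3 lower. Upper-quartile scaling gave 18 higher and 3 lower, and moved the share of higher calls among all called genes from 50.2% to 61.2%. In all settings tried, the 16 higher and 8 lower members kept their direction.

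**Figure D1:**
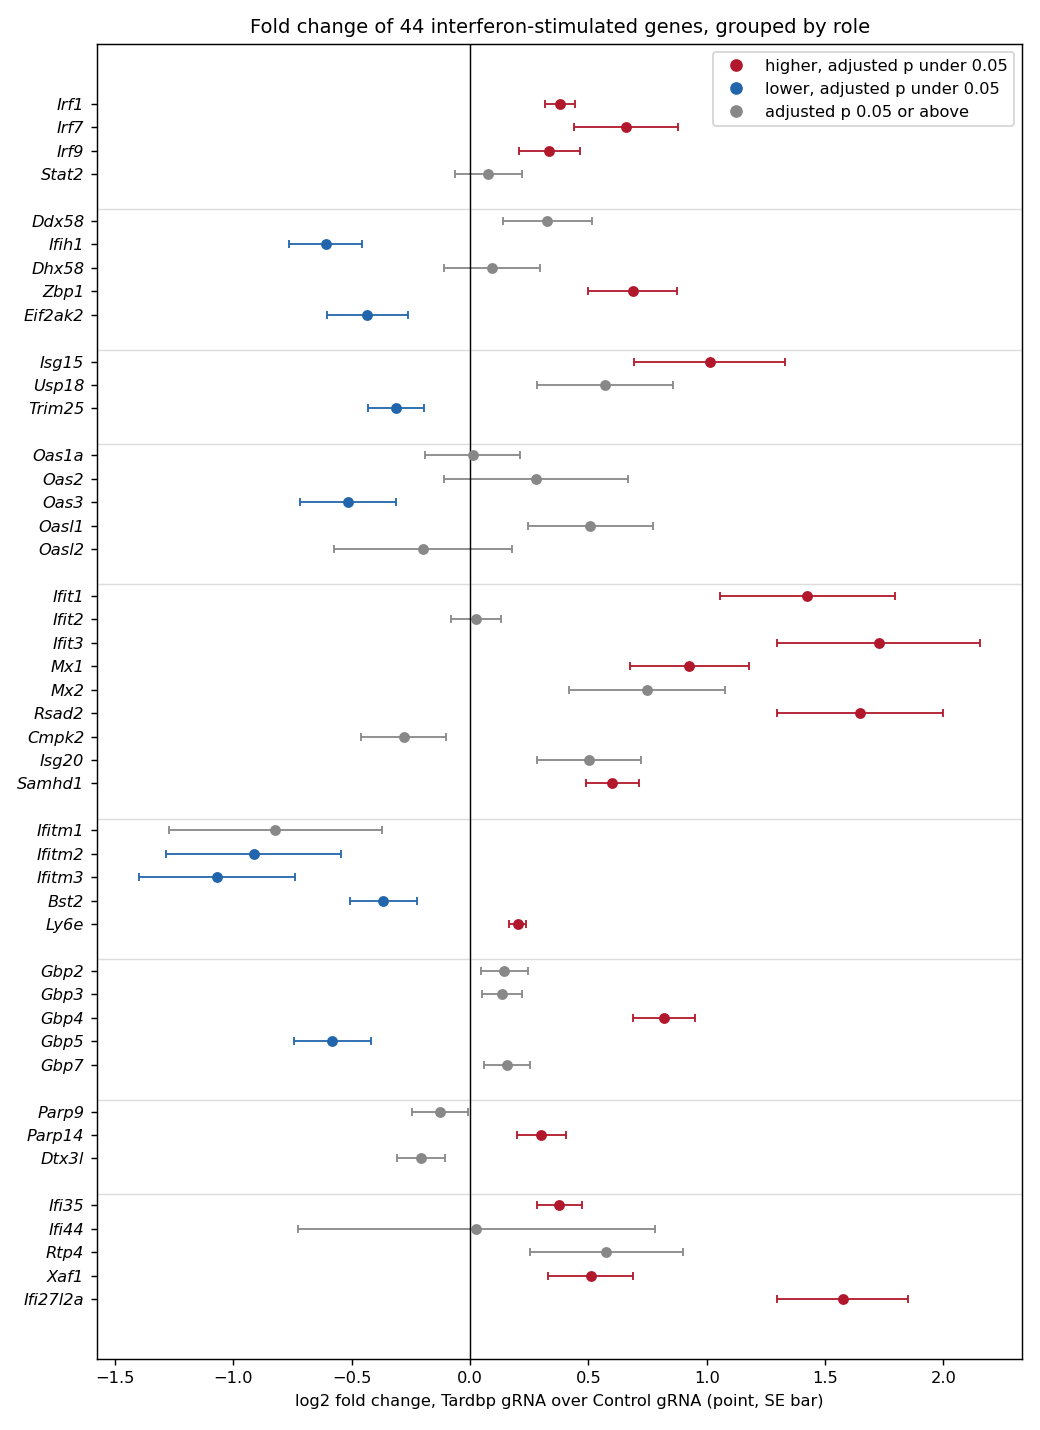
Log2 fold change (horizontal axis, Tardbp gRNA over Control gRNA) of the 44 members by role, from transcription factors at the top to other genes at the bottom. Points are edgeR estimates with SE bars, red for the 16 called higher, blue for the 8 called lower and grey for the 20 not called, and the widest rises are those of Ifit3, Rsad2, Ifi27l2a and Ifit1.

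Among transcription factors of the response, 3 of 4 were called higher, where 23.5% of all genes tested were. Irf1 (chr11:53770014-53778374), a regulator induced by interferon gamma, had 138 to 187 CPM (median 158) in Control and 188 to 225 CPM (median 210.1) in Tardbp libraries. Its groups did not overlap, with means of 159.7 ± 18.1 in Control and 208 ± 12.3 CPM in Tardbp gRNA (SD, n = 8) and a log2 change of 0.38 ± 0.062 (SE, adjusted p 6.62e-05 by edgeR). Irf7, an amplifier of type I interferon transcription, had 37.9 to 98.9 CPM (median 60.6) in Control and 54.4 to 144 CPM (median 106) in Tardbp libraries. For Irf7, 5 of 8 Tardbp libraries lay above the highest Control library, and means of 66.1 ± 24.3 in Control and 104 ± 29.6 CPM in Tardbp gRNA (SD, n = 8) gave a log2 change of 0.66 ± 0.22 (SE, adjusted p 0.0196 by edgeR), a call that held in 15 of 16 fits that left out a library. Irf9, the DNA-binding part of the complex with Stat2, had a log2 change of 0.33 ± 0.13 (SE, adjusted p 0.0413 by edgeR), a call that held in 5 of 16 fits that left out a library. Stat2 had means of 37.1 ± 9.19 in Control and 39.1 ± 5.71 CPM in Tardbp gRNA (SD, n = 8) and a log2 change of 0.077 ± 0.14 (SE, adjusted p 0.684 by edgeR).

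Sensors of foreign or misplaced nucleic acid did not move one way. Ifih1 encodes MDA5, a sensor of long double-stranded RNA, and had 33.4 to 68.4 CPM (median 54.8) in Control and 25.8 to 46.1 CPM (median 37.5) in Tardbp libraries. Levels of Ifih1 were lower in Tardbp gRNA, at 54.9 ± 12.2 in Control and 36.0 ± 8.26 CPM in Tardbp gRNA (SD, n = 8), with a log2 change of -0.61 ± 0.15 (SE, adjusted p 0.00301 by edgeR). Zbp1, a sensor of Z-form nucleic acid linked to cell death, had 29.3 to 75.2 CPM (median 48.9) in Control and 49.4 to 111 CPM (median 76.2) in Tardbp libraries. Zbp1 rose, at 49.4 ± 16.2 in Control and 79.5 ± 19.8 CPM in Tardbp gRNA (SD, n = 8), with a log2 change of 0.69 ± 0.19 (SE, adjusted p 0.00607 by edgeR). Eif2ak2 encodes PKR, the kinase that stops translation when it meets double-stranded RNA, and had 24.0 to 39.2 CPM (median 33.1) in Control and 12.6 to 31.5 CPM (median 26.6) in Tardbp libraries. Its means were 32.2 ± 5.26 in Control and 23.9 ± 7.39 CPM in Tardbp gRNA (SD, n = 8) and it fell with a log2 change of -0.43 ± 0.17 (SE, adjusted p 0.0461 by edgeR), a call kept in 7 of 16 fits that left out a library. Ddx58 (RIG-I) and Dhx58 (LGP2), the other RNA sensors of the family, had edgeR log2 changes of 0.33 ± 0.19, adjusted p 0.168, and 0.093 ± 0.20, adjusted p 0.738, the latter with a sign that changed when single libraries were left out.

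In the ISG15 system, the ubiquitin-like modifier itself rose. Isg15 had 6.40 to 29.4 CPM (median 18.1) in Control and 13.0 to 61.8 CPM (median 34.0) in Tardbp libraries. For Isg15, 6 of 8 Tardbp libraries exceeded the highest Control library, with means of 18.6 ± 8.51 in Control and 37.5 ± 15.9 CPM in Tardbp gRNA (SD, n = 8) and a log2 change of 1.01 ± 0.32 (SE, adjusted p 0.0143 by edgeR). Usp18, which removes ISG15 and dampens receptor signalling, had a log2 change of 0.57 ± 0.29 (SE, adjusted p 0.113 by edgeR). Trim25, a ligase that acts on RIG-I, had means of 78.3 ± 7.15 in Control and 63.0 ± 14.5 CPM in Tardbp gRNA (SD, n = 8) and was called lower with a log2 change of -0.31 ± 0.12 (SE, adjusted p 0.0353 by edgeR), with 6 of 8 Tardbp libraries below the lowest Control library and the call kept in 11 of 16 fits that left out a library.

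The oligoadenylate synthetases, which make the activator of RNase L, gave 1 call in 5, where 46.7% of all genes tested were called. Oas3 had 41.1 to 104 CPM (median 79.8) in Control and 34.6 to 89.2 CPM (median 49.2) in Tardbp libraries. Its means were 77.3 ± 18.4 in Control and 54.0 ± 20.2 CPM in Tardbp gRNA (SD, n = 8) and it fell with a log2 change of -0.52 ± 0.20 (SE, adjusted p 0.0441 by edgeR), and the call was kept in 4 of 16 fits that left out a library. Oas1a had means of 22.9 ± 5.88 in Control and 23.1 ± 7.88 CPM in Tardbp gRNA (SD, n = 8) and a log2 change of 0.010 ± 0.20 (SE, adjusted p 0.974 by edgeR), and shared 57.6% of its 50-base words with Oas1g, so its reads could be split between copies. Oas2, Oasl1 and Oasl2 had low levels, with Control and Tardbp means (SD, n = 8) of 1.98 ± 1.25 and 2.42 ± 0.986 CPM, 1.71 ± 0.708 and 2.44 ± 0.893 CPM and 9.56 ± 5.14 and 8.35 ± 3.93 CPM. Their log2 changes by edgeR were 0.28, 0.51 and -0.20 (adjusted p 0.587, 0.127 and 0.696), and the sign of Oasl2 changed between settings.

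Genes listed as direct effectors held 3 of the 4 largest rises. Of the 9, 5 were called (55.6%, against 46.7% of all genes tested). All 5 were higher, where 23.5% of all genes tested were called higher. Ifit3, which partners Ifit1 on viral RNA, had 2.30 to 24.1 CPM (median 10.5) in Control and 9.44 to 55.2 CPM (median 40.9) in Tardbp libraries. Only Tardbp library 1 fell within the Control range, and means of 11.4 ± 7.93 in Control and 37.7 ± 15.8 CPM in Tardbp gRNA (SD, n = 8) gave a log2 change of 1.73 ± 0.43 (SE, adjusted p 0.00290 by edgeR). Ifit3 shared 51.2% of its 50-base words with Ifit3b, so the division of reads between them is uncertain. Ifit1, which binds the 5′ end of foreign RNA, had 4.90 to 29.9 CPM (median 19.0) in Control and 13.1 to 72.3 CPM (median 48.3) in Tardbp libraries. For Ifit1, 7 of 8 Tardbp libraries stood above the highest Control library, with means of 17.6 ± 9.44 in Control and 47.3 ± 19.996 CPM in Tardbp gRNA (SD, n = 8) and a log2 change of 1.43 ± 0.37 (SE, adjusted p 0.00399 by edgeR). Ifit2, a neighbour of both on chromosome 19, had means of 18.3 ± 2.43 in Control and 18.6 ± 3.23 CPM in Tardbp gRNA (SD, n = 8) and a log2 change of 0.024 ± 0.10 (SE, adjusted p 0.877 by edgeR), a value whose sign changed between settings.

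Rsad2 encodes viperin, an enzyme that makes a chain-ending nucleotide, and had 1.14 to 7.48 CPM (median 3.98) in Control and 4.32 to 18.8 CPM (median 11.9) in Tardbp libraries. Means of 3.94 ± 2.09 in Control and 12.4 ± 5.27 CPM in Tardbp gRNA (SD, n = 8) gave a log2 change of 1.65 ± 0.35 (SE, adjusted p 7.97e-04 by edgeR), with 7 of 8 Tardbp libraries above every Control library. Its neighbour on chromosome 12, Cmpk2, a mitochondrial nucleotide kinase, had means of 59.3 ± 10.5 in Control and 48.8 ± 16.016 CPM in Tardbp gRNA (SD, n = 8) and a log2 change of -0.28 ± 0.18 (SE, adjusted p 0.208 by edgeR). Mx1, from a family of dynamin-like GTPases, had 4.53 to 15.5 CPM (median 10.1) in Control and 9.86 to 29.8 CPM (median 20.4) in Tardbp libraries. Mx1 RNA rose, at 10.5 ± 4.35 in Control and 19.9 ± 6.13 CPM in Tardbp gRNA (SD, n = 8), with a log2 change of 0.93 ± 0.25 (SE, adjusted p 0.00545 by edgeR). Mx2, annotated as a polymorphic pseudogene, had a log2 change of 0.75 ± 0.33 (SE, adjusted p 0.0716 by edgeR). Whether either makes a working protein in these cells was not tested. Samhd1, which degrades the building blocks of DNA, had 149 to 223 CPM (median 176) in Control and 199.5 to 362 CPM (median 268) in Tardbp libraries. Here 7 of 8 Tardbp libraries exceeded all Control libraries, means were 181 ± 24.8 in Control and 275 ± 56.0 CPM in Tardbp gRNA (SD, n = 8), with a log2 change of 0.60 ± 0.11 (SE, adjusted p 2.51e-04 by edgeR). Isg20, an exonuclease, had means of 20.8 ± 6.93 in Control and 29.5 ± 8.29 CPM in Tardbp gRNA (SD, n = 8) and a log2 change of 0.50 ± 0.22 (SE, adjusted p 0.0686 by edgeR).

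**Figure D2:**
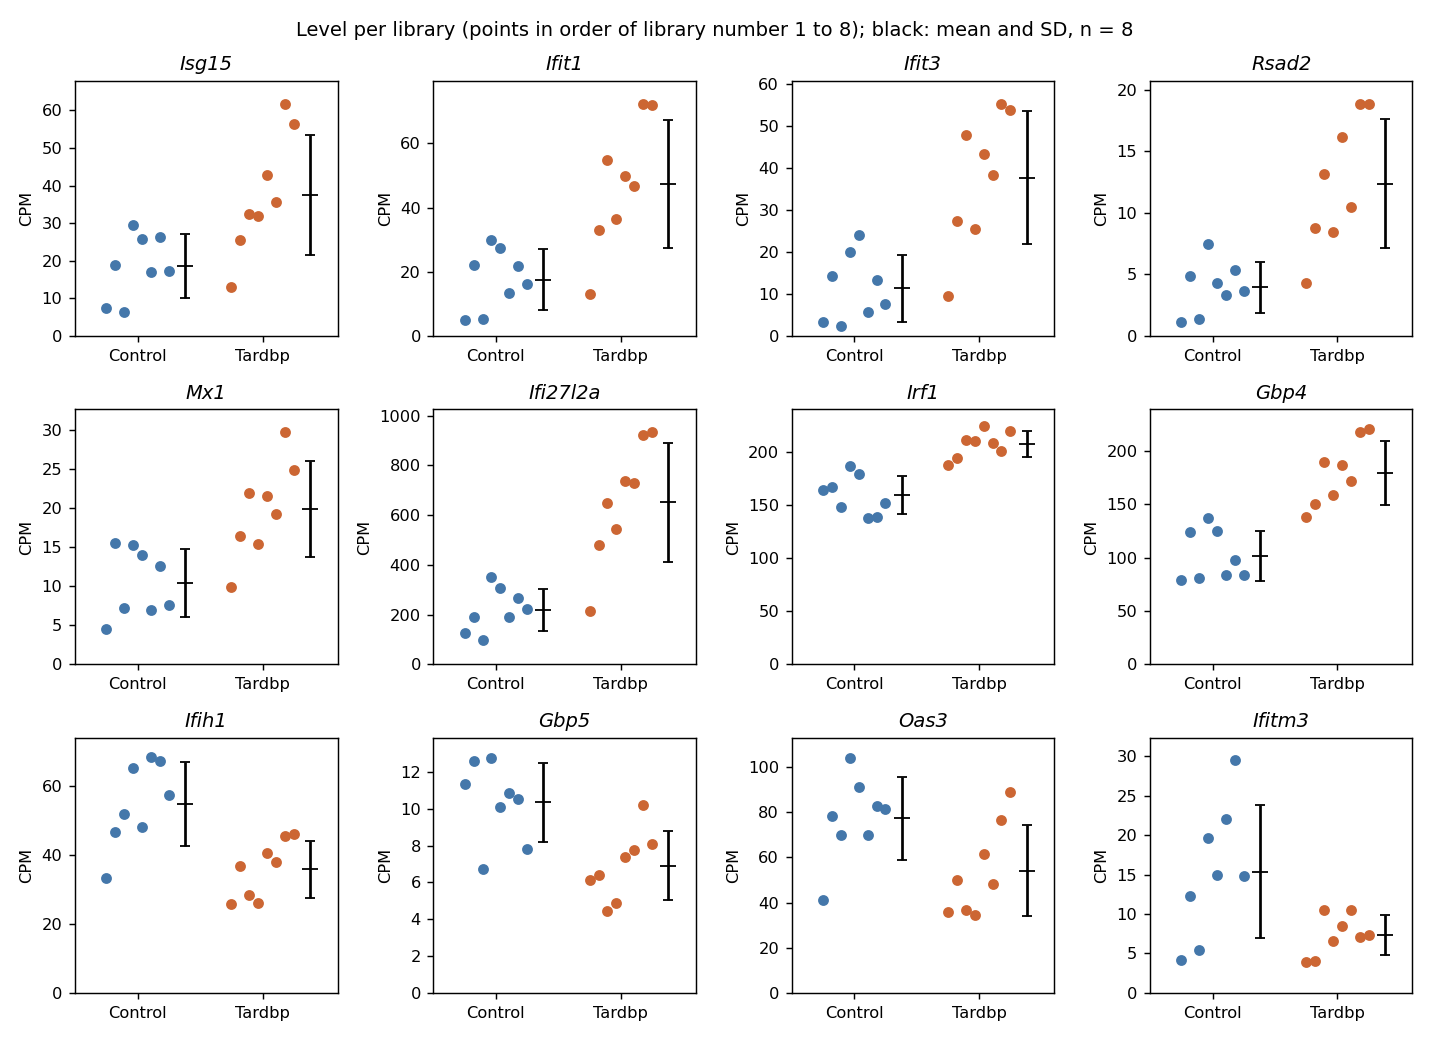
CPM (vertical axes, from 0) of 12 members in each library, Control gRNA in blue and Tardbp gRNA in orange, in order of library number, with mean and SD in black (n = 8 per group). Isg15, Ifit1, Ifit3, Rsad2, Mx1 and Ifi27l2a have 6 or 7 Tardbp libraries above the Control range, Irf1 and Gbp4 have all 8 above it, and the 4 genes of the bottom line fell with overlap.

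Membrane proteins held 3 of the 8 members called lower, out of 5 of this role, where 23.3% of all genes tested were called lower. Ifitm3, which blocks viral entry at endosomes, had 4.18 to 29.5 CPM (median 14.9) in Control and 3.93 to 10.5 CPM (median 7.27) in Tardbp libraries. It fell, at 15.4 ± 8.43 in Control and 7.33 ± 2.50 CPM in Tardbp gRNA (SD, n = 8), with a log2 change of -1.07 ± 0.33 (SE, adjusted p 0.0125 by edgeR), and 6 of 8 Tardbp libraries stayed within the Control range. Ifitm2 had 4.32 to 30.6 CPM (median 17.4) in Control and 3.29 to 16.5 CPM (median 7.21) in Tardbp libraries. Its means were 16.9 ± 8.75 in Control and 9.01 ± 4.67 CPM in Tardbp gRNA (SD, n = 8), with a log2 change of -0.91 ± 0.37 (SE, adjusted p 0.0493 by edgeR), a call kept in 4 of 16 fits that left out a library, and it shared 36.1% of its 50-base words with Gm45717. Ifitm1 had means of 38.7 ± 23.3 in Control and 21.9 ± 14.5 CPM in Tardbp gRNA (SD, n = 8) and a log2 change of -0.82 ± 0.45 (SE, adjusted p 0.146 by edgeR). Bst2 encodes tetherin, which holds budding virions at the cell surface, and had 66.4 to 120.2 CPM (median 87.3) in Control and 44.6 to 91.8 CPM (median 66.7) in Tardbp libraries. It fell, at 88.1 ± 16.9 in Control and 68.3 ± 16.7 CPM in Tardbp gRNA (SD, n = 8), with a log2 change of -0.37 ± 0.14 (SE, adjusted p 0.0409 by edgeR) that passed in 9 of 16 fits that left out a library. Ly6e, a GPI-anchored protein, was called higher without overlap of the groups, at 1751 ± 68.9 in Control and 2012 ± 108 CPM in Tardbp gRNA (SD, n = 8), with a small log2 change of 0.20 ± 0.036 (SE, adjusted p 1.55e-04 by edgeR).

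Guanylate-binding proteins, GTPases that attack vacuoles of intracellular pathogens, split within the family. Gbp4 (chr5:105115767-105139586, GRCm38 gene coordinates of GENCODE M21) had 79.3 to 137 CPM (median 90.7) in Control and 138 to 220.0 CPM (median 179) in Tardbp libraries. Its groups did not overlap, means were 101 ± 23.6 in Control and 179 ± 30.1 CPM in Tardbp gRNA (SD, n = 8), with a log2 change of 0.82 ± 0.13 (SE, adjusted p 4.93e-05 by edgeR). Gbp5, which lies on another chromosome (chr3:142493978-142522344), had 6.74 to 12.8 CPM (median 10.7) in Control and 4.43 to 10.2 CPM (median 6.88) in Tardbp libraries. It moved the other way, at 10.3 ± 2.13 in Control and 6.91 ± 1.87 CPM in Tardbp gRNA (SD, n = 8), with a log2 change of -0.58 ± 0.16 (SE, adjusted p 0.00691 by edgeR). Gbp2, Gbp3 and Gbp7 were not called, with log2 changes of 0.14, 0.13 and 0.16 (adjusted p 0.242, 0.206 and 0.201 by edgeR) at Control means of 50.8, 63.7 and 123 CPM. Gbp7 shared 10.5% of its 50-base words with Gm43802.

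Of the ADP-ribosylation genes, which lie together on chromosome 16, Parp14 was called higher at 24.0 ± 3.27 in Control and 29.6 ± 4.63 CPM in Tardbp gRNA (SD, n = 8), with a log2 change of 0.30 ± 0.10 (SE, adjusted p 0.0236 by edgeR). The Parp14 call was kept in 12 of 16 fits that left out a library, and was lost with the replicate block (adjusted p 0.052 by edgeR), within numbers 4 to 8 (0.075) and within numbers 1 to 3 (0.441), and with the RNA concentration as a covariate (0.281). Parp9 and its partner Dtx3l, an E3 ligase, had edgeR log2 changes of -0.13 ± 0.12, adjusted p 0.396, and -0.21 ± 0.10, adjusted p 0.104. The strongest of the other members was Ifi27l2a (chr12:103442167-103443680), a small interferon-induced protein, with 99.1 to 352 CPM (median 206) in Control and 215 to 934 CPM (median 690.1) in Tardbp libraries. For Ifi27l2a 7 of 8 Tardbp libraries lay above the Control range, means were 219 ± 86.3 in Control and 652 ± 239 CPM in Tardbp gRNA (SD, n = 8), with a log2 change of 1.57 ± 0.28 (SE, adjusted p 1.32e-04 by edgeR). Xaf1, a partner of the apoptosis inhibitor XIAP, had 27.1 to 62.8 CPM (median 45.3) in Control and 34.3 to 89.9 CPM (median 67.3) in Tardbp libraries, with means of 45.5 ± 11.6 in Control and 64.7 ± 17.6 CPM in Tardbp gRNA (SD, n = 8) and a log2 change of 0.51 ± 0.18 (SE, adjusted p 0.0269 by edgeR), kept in 10 of 16 fits that left out a library. Ifi35 had 73.3 to 112 CPM (median 100.1) in Control and 90.5 to 147 CPM (median 129) in Tardbp libraries, with means of 97.2 ± 12.6 in Control and 126 ± 18.8 CPM in Tardbp gRNA (SD, n = 8) and a log2 change of 0.38 ± 0.096 (SE, adjusted p 0.00346 by edgeR), and shared 10.4% of its 50-base words with Gm11626. Rtp4, a chaperone of receptors, had a log2 change of 0.58 ± 0.32 (SE, adjusted p 0.156 by edgeR). Ifi44 was near the floor, at 0.320 ± 0.265 in Control and 0.327 ± 0.219 CPM in Tardbp gRNA (SD, n = 8), with a log2 change of 0.026 ± 0.75 (SE, adjusted p 0.983 by edgeR), a value whose sign changed between settings.

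Per kilobase of merged exons, Ifi27l2a (472.7 CPM), Ly6e (462.6), Bst2 (97.5) and Ifi35 (56.3) had the highest Control levels of the 44, and Ifi44 (0.0522) and Oas2 (0.446) the lowest. In Tardbp gRNA the first places were again Ifi27l2a (1408), Ly6e (531.8), Bst2 (75.6) and Ifi35 (73.1), with Irf1 (52.2) and Isg15 (49.6) next. Isg15 moved from place 8 to 6, Ifit3 from 32 to 15 and Ifit1 from 31 to 19, while Ifitm3 moved from 10 to 28 and Ifitm2 from 7 to 23.

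Beyond the group difference, the members moved together from library to library within each group. Relative to each gene's own group mean of log2(CPM + 0.5), 43 of 44 members lay above it in Control library 4 and 40 in Control library 5, against 4 in Control library 1 and 3 in Control library 3. Among Tardbp libraries, 43 lay above it in library 7 and 42 each in libraries 5 and 8, against 1 in library 1 and 2 in library 4. Over all tested genes the share above the group mean was between 46.8% and 52.6% in every library. The median SD within a group, over 43 members with a mean of at least 0 on the log2(CPM + 0.5) scale, was 0.392 in Control and 0.428 in Tardbp gRNA, against 0.171 and 0.169 over 13692 genes. Of the members called lower, all 8 were above their group mean in Control library 4 and in Tardbp libraries 5, 7 and 8, and 0 in Control library 3 and in Tardbp libraries 1 and 4. In other libraries the members called higher and lower parted. Control library 6 had 1 of 16 higher and 6 of 8 lower members above the group mean, and Tardbp library 3 had 14 of 16 and 2 of 8. Tardbp libraries 1 and 4 were also the 2 highest in globin RNA, whose part in this was not tested. In Control gRNA the low libraries 1 and 3 had red cell sums of 10.8 and 1.16 CPM.

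**Figure D3:**
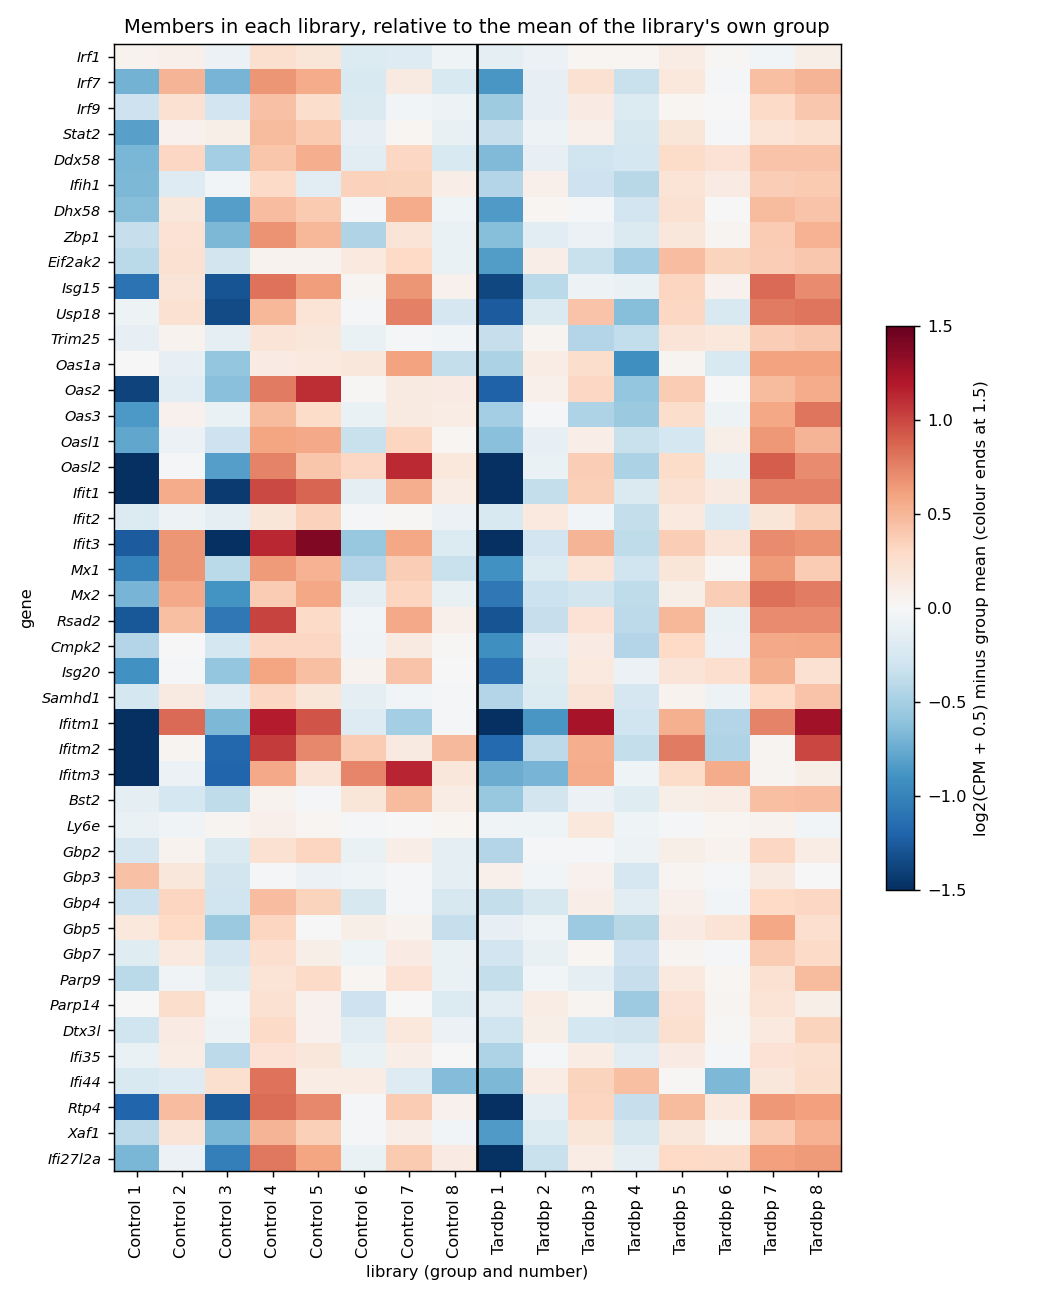
Log2(CPM + 0.5) of the 44 members (vertical axis) in each library (horizontal axis) minus the mean of that library's group, red above and blue below, with the colour scale ending at 1.5. Whole columns share a colour: Control 4 and 5 and Tardbp 5, 7 and 8 are red for 40 to 43 members, and Control 1 and 3 and Tardbp 1 and 4 are blue for 40 to 43.

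Ratios of a pair of members were also taken within each library. They remove this shared level only where both genes follow it to the same extent. Ifit1 over Ifit2 still followed it, at 0.312 and 0.315 in Control libraries 1 and 3 and 1.46 and 1.19 in Control libraries 4 and 5. Gbp4 over Gbp5 did so less, at 6.99 and 11.9 in Control libraries 1 and 3 and 10.7 and 12.4 in 4 and 5. The pairs were chosen after the values were seen, so they are given without a test. Ddx58 over Ifih1 was 0.652 to 1.51 in Control and 1.54 to 2.00 in Tardbp libraries. Zbp1 over Eif2ak2 was 0.973 to 2.28 and 2.75 to 4.19. Gbp4 over Gbp5 was 6.99 to 12.4 and 21.3 to 42.7. These 3 pairs, each of genes with related roles, did not overlap between groups, although single genes of each except Gbp4 did. Ifit3 over Oas3 was 0.0329 to 0.264 in Control and 0.265 to 1.30 in Tardbp libraries. Ifit1 over Ifit2 was 0.312 to 1.46 and 0.838 to 3.45, and Isg15 over Trim25 was 0.0899 to 0.343 and 0.269 to 0.778. In these last 2 pairs 7 of 8 Tardbp libraries exceeded the highest Control library.

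**Figure D4:**
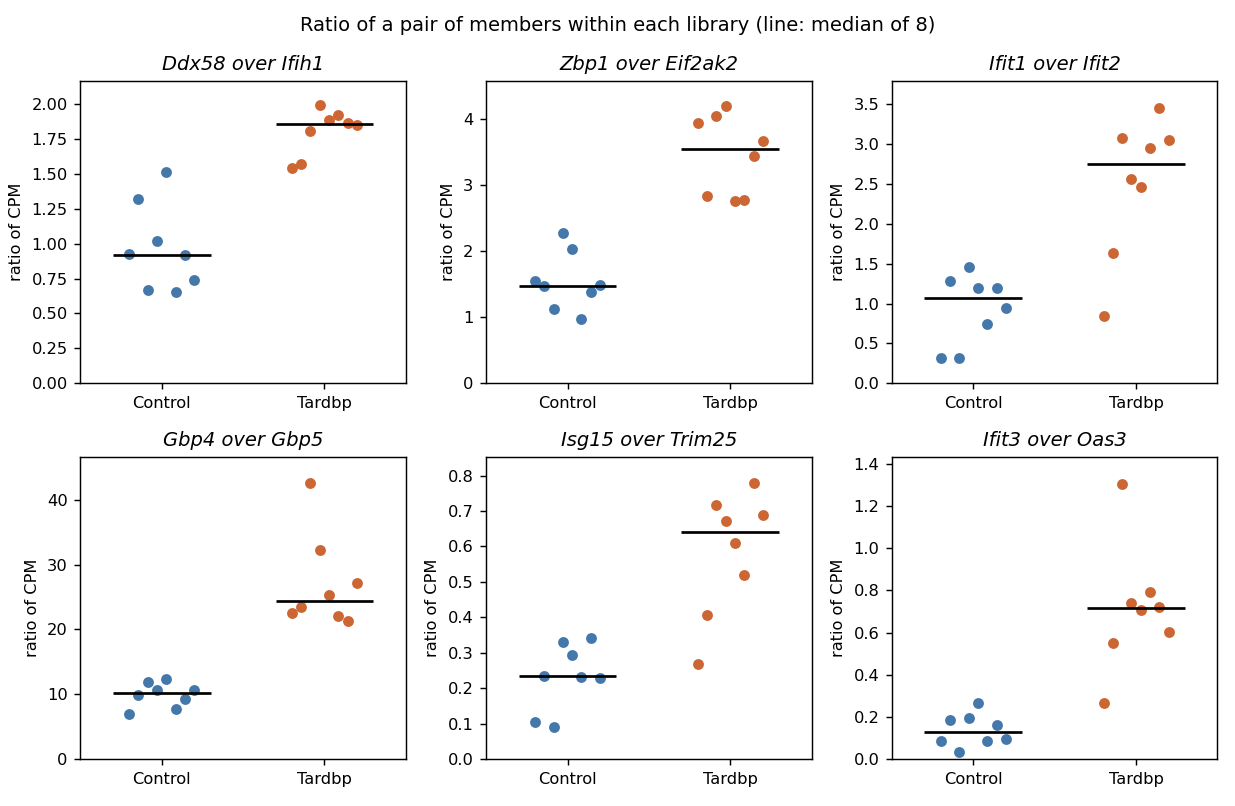
Ratio of CPM of a pair of members within each library (vertical axes, from 0), Control gRNA in blue and Tardbp gRNA in orange, with the median of 8 as a line. The groups are apart for Ddx58 over Ifih1, Zbp1 over Eif2ak2 and Gbp4 over Gbp5, and nearly touch for Ifit3 over Oas3 (0.264 against 0.265).

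The letter of the deposited sheet was examined because the groups differed in it. Tardbp libraries 5, 7 and 8, the 3 with the most members above the group mean, were the 3 lettered F. Tardbp libraries 1 to 3 were all lettered M. In that group a difference by letter therefore cannot be fully told apart from one between numbers 1 to 3 and 4 to 8. Zbp1 averaged 59.7 CPM in M and 43.2 in F libraries of Control gRNA, and 67.4 in M and 99.6 in F libraries of Tardbp gRNA. Oas3 averaged 78.7 and 76.4 CPM in Control M and F, and 41.1 and 75.6 in Tardbp M and F. Trim25 averaged 82.8 and 75.5 in Control, and 54.5 and 77.2 in Tardbp gRNA. In these means the rise of Zbp1 was larger in F, and the fall of Oas3 and Trim25 was seen in M. These 3 were among the members with the lowest unadjusted p for this difference by edgeR (0.0049, 0.0084 and 0.0023). For the called members Ly6e and Ifitm3 it was 0.93 and 0.71. The test of the difference by edgeR called 0 members and 0 genes at an adjusted p under 0.05 (lowest member adjusted p 0.9997). At an unadjusted p under 0.05, 21 of 44 members had such an interaction, against 3.98% of all genes, and the members are not independent because they move together. With the letter as a covariate, 16 members were called higher and 5 lower.

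**Figure D5:**
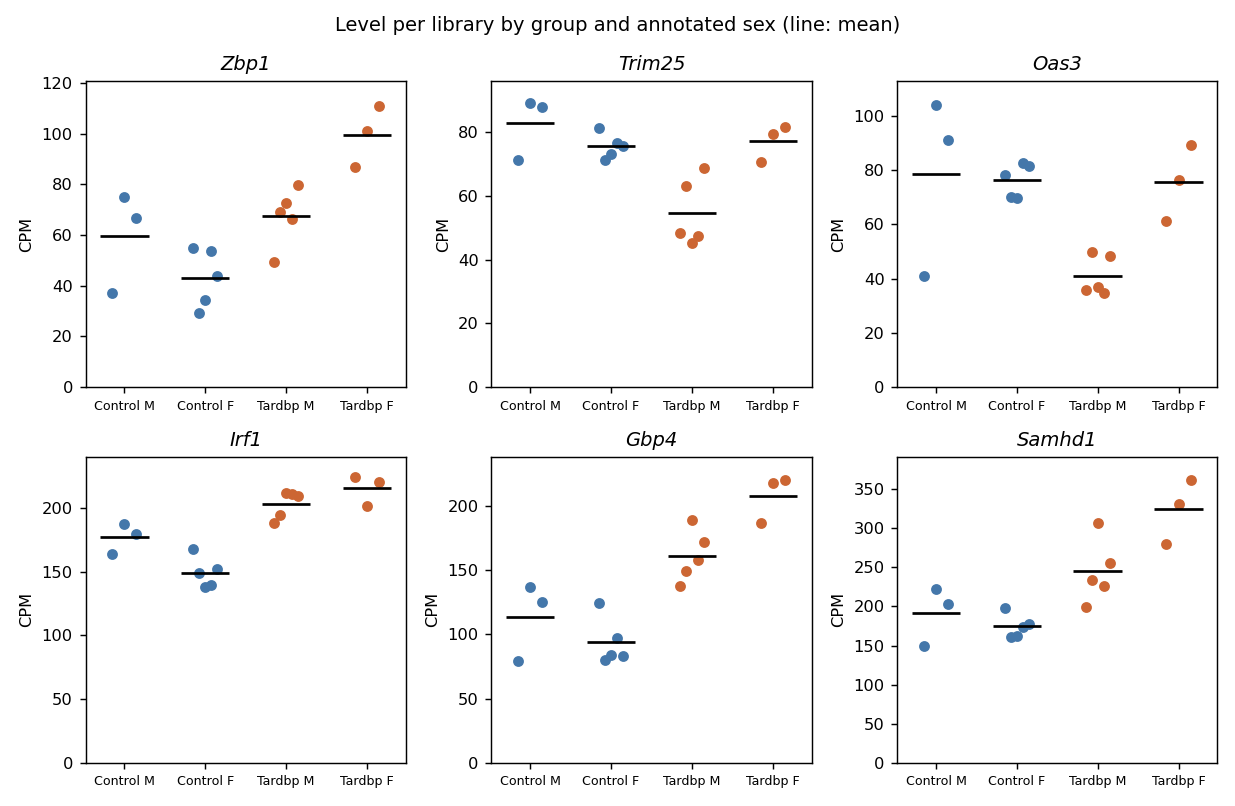
CPM (vertical axes, from 0) of 6 members in each library by group and by the letter M or F headed sex in the deposited sheet, with a line at the mean. Tardbp F libraries have the highest mean for Zbp1, Irf1, Gbp4 and Samhd1, and Tardbp M libraries have the lowest mean for Oas3 and Trim25. The 6 shown are among the members with an unadjusted interaction p under 0.05 by edgeR, of which 0 passed adjustment.

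Library numbers 1 to 3 and 4 to 8 were also read apart. Isg15 averaged 10.9 CPM in Control and 23.7 in Tardbp gRNA among numbers 1 to 3, and 23.1 and 45.7 among numbers 4 to 8. Ifit3 averaged 6.68 and 28.3, then 14.2 and 43.3. Ifih1 averaged 44.1 and 30.4, then 61.4 and 39.3. The differences had one direction in both sets. Within numbers 4 to 8, edgeR called 17 members higher and 4 lower, and within numbers 1 to 3, with 3 libraries per group, 1 higher (Ifi27l2a) and 0 lower, with 10 higher and 6 lower at an unadjusted p under 0.05. Of all genes tested, these fits called 40.8% and 10.1%.

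Isoform use of the members was read from the transcript counts. Shares could be tested for 117 transcripts of 30 members with limma, and 0 passed an adjusted p under 0.05 with a difference over 0.1, although 28 had an unadjusted p under 0.05, of which 1 had a difference over 0.1. Without the minimum difference, 6 transcripts passed, against 4.42% of 32777 transcripts tested. Of these 6, 5 were annotated as retained introns and had a higher share. Over all genes, 607 of the 1449 transcripts that passed were retained introns, and 587 of those 607 had a higher share. Gbp5-205 went from 0.0472 ± 0.0169 to 0.128 ± 0.0440 of the estimated counts for Gbp5 (SD, n = 8, adjusted p 0.0105 by limma). Ifih1-203 went from 0.01997 ± 0.00367 to 0.0388 ± 0.00685 (limma adjusted p 0.00147) and Irf9-204 from 0.0162 ± 0.00369 to 0.0318 ± 0.00446 (limma adjusted p 8.24e-04), both without overlap of the groups. The others were Stat2-206 (limma adjusted p 0.0300) and Parp14-202 (0.0392), and the coding transcript Eif2ak2-201 had a lower share (0.989 to 0.973, limma adjusted p 0.0328). Over all retained-intron transcripts of members, 24 of 33 (72.7%) had a higher share, close to the 73.3% of 8778 such transcripts over all genes, where other transcripts were at 49.6%.

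The pathway that drives ISGs was read from a list of 73 genes, of which 57 were tested and 29 called (50.9%, against 46.7% of all genes tested), 17 higher and 12 lower. Among ligands, Ifng RNA rose without overlap of the groups, at 5.86 to 12.9 CPM (median 8.73) in Control and 14.8 to 27.8 CPM (median 21.4) in Tardbp libraries, with a log2 change of 1.30 ± 0.16 (SE, adjusted p 2.44e-06 by edgeR). For the protein the study reports the opposite direction, with less interferon gamma stained and secreted by Tardbp knockout cells after restimulation. Ebi3, a subunit of interleukin 27, fell with a log2 change of -1.39 ± 0.33 (SE, adjusted p 0.00211 by edgeR). Of the 14 ligands, 11 did not pass the filter on low counts, among them Ifnb1 and all 5 interferon alpha genes of the list. Of the receptor chains, Ifnar2 rose without overlap, at 39.9 to 63.4 CPM (median 57.3) in Control and 80.0 to 94.1 CPM (median 86.3) in Tardbp libraries, with a log2 change of 0.68 ± 0.078 (SE, adjusted p 1.42e-06 by edgeR). Ifnar1 had a log2 change of 0.041 ± 0.070 (SE, adjusted p 0.662 by edgeR), Ifngr1 fell with a log2 change of -0.22 ± 0.073 (SE, adjusted p 0.0190 by edgeR) and Ifngr2 had a log2 change of -0.20 ± 0.31 (SE, adjusted p 0.628 by edgeR). The signs of Ifnar1 and Ifngr2 changed between settings.

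The kinase and STAT genes had 1 higher and 4 lower of 8 tested, where 23.5% and 23.3% of all genes tested were called higher and lower. Jak2 rose with a log2 change of 0.39 ± 0.11 (SE, adjusted p 0.00642 by edgeR), and Stat5b fell with a log2 change of -0.72 ± 0.075 (SE, adjusted p 5.63e-07 by edgeR). Jak1 (0.016 ± 0.062, adjusted p 0.857) and Tyk2 (-0.084 ± 0.084, adjusted p 0.436), given as log2 change with SE by edgeR, were not called, and their signs changed between settings. The feedback inhibitors Socs1 (edgeR log2 change 0.53 ± 0.21, adjusted p 0.0433) and Socs3 (0.37 ± 0.14, adjusted p 0.0302) rose, in calls kept in 4 and 6 of 16 fits that left out a library. Adar, which edits double-stranded RNA, fell with a log2 change of -0.30 ± 0.10 (SE, adjusted p 0.0262 by edgeR), a call kept in 14 of 16 such fits. Of 11 other settings, 6 kept the Adar call. It was lost with upper-quartile scaling, with the RNA concentration as a covariate and within numbers 1 to 3 or 4 to 8. It was also lost without the 2 Tardbp libraries highest in globin RNA. Trex1, which degrades cytosolic DNA, rose with a log2 change of 1.43 ± 0.43 (SE, adjusted p 0.0112 by edgeR). The Trex1 call was also lost without those 2 libraries (log2 change 1.20, adjusted p 0.051 by edgeR) and within numbers 1 to 3, and the log2 change was 3.15 with the RNA concentration as a covariate.

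A further list of 97 ISGs outside the 44 had 93 genes tested and 54 called, 45 higher and 9 lower, with a median log2 change of 0.34. The called share was 58.1%, against 46.7% of all genes tested (23.5% higher and 23.3% lower), whose median log2 change was 0.046. This list was also drawn up with earlier results of these data known, so its shares are not independent support. Of the p200 family, which holds DNA sensors, 7 of 11 tested genes were called higher and 2 lower. Ifi213 had 8.74 to 34.1 CPM (median 18.1) in Control and 36.3 to 88.5 CPM (median 66.1) in Tardbp libraries, without overlap, and a log2 change of 1.67 ± 0.26 (SE, adjusted p 3.61e-05 by edgeR). Ifi214 (edgeR log2 change 1.55 ± 0.21, adjusted p 7.78e-06) and Ifi209 (1.36 ± 0.18, adjusted p 5.19e-06) also rose without overlap. Of 14 interferon-induced GTPases, 5 were called, all higher, and of 13 genes of the TRIM, SP and PML families 9 rose and 1 fell. These are 35.7% and 76.9% called, beside 46.7% of all genes tested. Ifitm10, a relative of the 3 Ifitm members, rose with a log2 change of 2.16 ± 0.22 (SE, adjusted p 4.98e-07 by edgeR). Whether interferon induces Ifitm10 was not tested here. Ifit3b rose with a log2 change of 1.69 ± 0.36 (SE, adjusted p 8.19e-04 by edgeR).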

How the data were processed

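RNA of sorted CD8+ T cells was read in 16 libraries (Control gRNA 8, Tardbp gRNA 8), grouped by the labels and made with SMART-Seq v4 and Nextera XT. Per the labels, the authors used HISAT2 2.1.0 to align reads to mm10, handled alignments with SAMtools 1.9 and made estimated counts per gene and transcript with StringTie 2.1.0. The labels also name R 4.0.5 and DESeq2 1.30.1. The deposited estimated counts were whole numbers, not normalized, at 1.89 to 2.02 per read pair, so they are not independent molecules. The deposited count of read pairs per library was 29714709 to 48164083. A splicing table (Psi per group, and the authors' own difference and probability columns) was not used, because its header names the groups only as A and B. The RNA concentration and the letter M or F were used as deposited.

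A further 10 columns of each count matrix matched no sample and were not used. Lines that named no GENCODE M21 gene held 0.0836% to 0.132% of counts and were left out.

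The test over all genes was that of edgeR 4.0.16 in R 4.3.3 (quasi-likelihood, TMM, filterByExpr with minimum count 10, minimum total 15 and proportion 0.7, two-sided, Benjamini-Hochberg over all genes tested, SE as the log2 fold change over the root of F) and no covariate. DESeq2 1.42.0, other scalings, no filter, blocks, covariates and leave-one-out fits were alternatives. Shares of transcripts were tested with limma 3.58.1 where a gene kept 2 or more. Both tests were checked on simulated data. Tables and figures were made in Python 3.11.15.

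The members and gene lists were chosen with earlier results of these data known. Values in full were given for Tardbp and the 20 called members with the largest log2 fold change in size and a mean log2 CPM of at least 1; other members got a level or fold change, and fixed pathway genes were joined by up to 5 called genes of each list. A single fixed pathway gene is not reported here. ISRE and GAS letters were searched in RefSeq promoters, and words of 50 bases compared between GENCODE transcripts of all genes. Shared words mark genes whose reads the counting could split. Over 10% of the words were found in another gene for 6 members, not all of which are marked in the text.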

Additional observations from a re-analysis of the deposited data

Results flagged for a closer look

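Levels of the 44 members and of Tardbp were read in each group of 8 libraries for a single library far from the others, by the gap to its nearest neighbour over the range (95% level of Dixon's test). Of 90 groups of values, 2 passed, where 1 in 20 gives 4.5 by chance. Gbp3 was at 58.5 CPM in Tardbp library 4, below 68.0 to 76.6 CPM in the other Tardbp libraries. Tardbp itself was at 110.4 CPM in Tardbp library 3, below 129.8 to 147.1 CPM in the others.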

How the results depend on the processing

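Counts of called genes, members higher, members lower, pathway genes and other ISGs are given in that order. They were 7783, 16, 8, 29 and 54 as reported, 8226, 16, 7, 32 and 55 with DESeq2, 1696, 1, 0, 8 and 12 within numbers 1 to 3 alone (3 libraries per group, 6 members lower at an unadjusted p under 0.05) and 2697, 3, 0, 12 and 22 with the RNA concentration as a covariate, which does not overlap between the groups (1 member lower at an unadjusted p under 0.05). Members called lower were 3 with upper-quartile scaling, 3 with no filter, 4 within numbers 4 to 8, 5 with the letter as a covariate, 2 at an adjusted p under 0.01 and 3 without the 2 libraries highest in globin RNA, an alternative chosen after seeing the data. Leaving out 1 library gave 7265 to 7734 genes, 12 to 19 members higher, 3 to 9 lower, 26 to 31 pathway genes and 48 to 57 other ISGs. Of the 24 called members, 12 higher and 3 lower (Ifih1, Ifitm3, Gbp5) were called in all 16 such fits. The cause was not tested.

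The labels do not say whether library numbers pair the samples, and the main fit did not treat them as pairs. Same-numbered libraries had correlations of -0.0048 to 0.160, 2 of 8 over 0.1, and 2 of 8 Control libraries correlated best with their own number. Such correlations cannot settle whether samples were paired. With the replicate block, 7645 genes, 17 members higher, 8 lower, 29 pathway genes and 58 other ISGs were called, and 1 member transcript changed share, against 0 without the block and 6 with no minimum difference.

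Signs changed for uncalled genes. With the RNA concentration they were -0.12 for Stat2, 0.24 for Oasl2, -0.13 for Ifi44, -0.064 for Ifnar1 and 0.048 for Tyk2. Within numbers 1 to 3 they were 0.36 for Oasl2, 0.16 for Ifngr2 and -0.078 for Jak1, and within numbers 4 to 8 -0.081 for Oas1a, -0.033 for Ifit2 and -0.021 for Ifi44. The block gave -0.029 for Oas1a and -0.14 for Ifi44, and the fit without the globin-rich libraries 0.018 for Oasl2 and -0.019 for Jak1. Leaving out 1 library moved Dhx58 from -0.0071 to 0.18, Ifi44 from -0.19 to 0.41, Ifit2 from -0.033 to 0.079, Ifnar1 from -0.0092 to 0.072, Jak1 from -0.040 to 0.050, Oas1a from -0.11 to 0.11 and Stat2 from -0.022 to 0.14.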
